A study of Mus musculus with 3 samples.

Results

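Fat cells release hormones, growth factors and enzymes, and 10 genes for such products were examined: Adipoq, Lep, Retn, Cfd, Nrg4, Angptl4, Vegfa, Vegfb, Bmp8b and Nampt. They were taken by gene symbol from the platform's probe table. Of the 10, 9 had a probe set in the deposited values, each of them 1, among 19938 genes measured in all. Cfd, which encodes the complement protease adipsin (factor D), was not named by any probe set and is not analysed here.

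The genes were compared on 3 mouse arrays with 1 sample each. The fibroblast sample is labelled as mouse fibroblasts in culture. DiBA is labelled as cultured cells of that name, in a series whose title speaks of direct conversion into brown adipocytes. BA is labelled with brown adipose tissue as its source, while its description calls it a cultivated cell, so the labels do not settle whether tissue or cultured cells were used. The labels give treatment as not applicable for all 3 samples, and strain, age, sex, converting factors and hormone medium are not stated there.

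With 1 array per group there is no spread between replicates, no test was possible, and each difference describes these arrays only. The values are probe set intensities on a linear scale. Folds were taken on intensity + 1, and the call of higher or lower needed 2-fold or more, with the brighter array at 69.2 or above, the median probe set intensity of the 3 arrays pooled. In such bulk samples, fewer cells of a type and less RNA per cell cannot be told apart.

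Brown adipocytes burn fuel to make heat, and their secreted products act on vessels, nerves, liver and the fat itself. Adiponectin and leptin are hormones that report on fat stores and insulin sensitivity, and resistin is a further hormone that mouse adipocytes make. Neuregulin 4 and BMP8B are regarded as products of brown fat, VEGF proteins maintain its capillaries, ANGPTL4 restrains lipoprotein lipase, and NAMPT makes a precursor of NAD inside cells and is also found outside them.

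The labels were set beside marker lists that were chosen with earlier results of these data known, so their counts are a description only. Over all genes, 8.54% were called higher and 7.67% lower in DiBA than in fibroblasts, and 9.51% and 9.59% in BA. Of 12 general adipocyte markers, 12 were called higher in DiBA and 12 in BA than in fibroblasts, and of 12 brown adipocyte markers 10 and 10. Zic1 and Lhx8, genes of brown fat lineages, were the 2 brown markers not called in either. With intensities under 69.2 raised to it, 8 of the 12 brown markers were called in each. Of 11 fibroblast markers, 7 were lower in DiBA and 8 in BA, and 2 were higher in both, Dcn and Lum, of which only Lum stayed called in DiBA when arrays were centred on their medians. Markers of other cells were higher as well. Of 12 skeletal muscle markers, 12 were higher in each, with a summed intensity of 2342 in fibroblasts, 17411 in DiBA and 19690 in BA. Of 10 endothelial markers, 9 were higher in DiBA and 10 in BA, with sums of 674, 3480 and 4178. With centred arrays 7 of these 10 were higher in DiBA, and with quantile normalization 8. Of 12 macrophage and immune markers, 11 and 10 were higher, with sums of 1350, 5921 and 6098. In fibroblasts 4 muscle, 6 endothelial and 5 immune markers lay under 69.2. In DiBA 0, 0 and 1 did, and in BA 0 of any. No marker was listed at an intensity of 0. The part of these cells in the values below was not tested.

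The start regions of Adipoq, Retn, Nrg4 and Lep, and of Vegfb and Nampt with smaller differences, are shown. Genes under 69.2 in fibroblasts can so be read beside genes over it. They are the 250 bases before the start of the gene in RefSeq's table for GRCm38.p6, 5′ to 3′, which held 9 of the 10 genes. The gene without an entry was Angptl4, whose difference from fibroblasts was larger than that of Lep. Capitals mark every match, on either strand, to 5 motifs. The TATA-type box was searched as TATAAA, the box bound by NF-Y as CCAAT and the half-site of nuclear receptors as AGGTCA. The C/EBP-type site was searched as TTNNGNAA, where N is any base, and the hypoxia response core as ACGTG. Matches of different motifs could overlap, and a run of capitals then holds more than 1.
Adipoq, chr16:23146286-23146535, plus strand: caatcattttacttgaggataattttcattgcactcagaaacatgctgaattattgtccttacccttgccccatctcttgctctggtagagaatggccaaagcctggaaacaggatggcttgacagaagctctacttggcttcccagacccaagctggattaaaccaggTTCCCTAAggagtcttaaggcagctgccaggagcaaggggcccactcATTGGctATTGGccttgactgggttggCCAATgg
Lep, chr6:29059971-29060220, plus strand: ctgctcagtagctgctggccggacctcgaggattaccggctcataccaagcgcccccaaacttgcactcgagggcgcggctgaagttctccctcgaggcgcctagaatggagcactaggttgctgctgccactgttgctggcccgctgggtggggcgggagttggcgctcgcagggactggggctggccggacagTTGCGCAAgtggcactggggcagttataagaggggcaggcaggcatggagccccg
Retn, chr8:3655520-3655769, plus strand: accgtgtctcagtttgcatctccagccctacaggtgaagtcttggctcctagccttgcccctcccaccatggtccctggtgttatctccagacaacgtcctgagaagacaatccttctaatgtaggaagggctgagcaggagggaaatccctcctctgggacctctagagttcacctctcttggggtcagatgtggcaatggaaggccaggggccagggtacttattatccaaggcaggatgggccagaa
Nrg4, chr9:55283626-55283875, minus strand: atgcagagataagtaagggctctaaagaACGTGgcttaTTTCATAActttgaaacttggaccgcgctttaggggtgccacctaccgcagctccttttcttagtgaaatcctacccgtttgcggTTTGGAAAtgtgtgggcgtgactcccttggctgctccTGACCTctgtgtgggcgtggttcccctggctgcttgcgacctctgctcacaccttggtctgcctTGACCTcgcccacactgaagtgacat
Vegfb, chr19:6987652-6987901, minus strand: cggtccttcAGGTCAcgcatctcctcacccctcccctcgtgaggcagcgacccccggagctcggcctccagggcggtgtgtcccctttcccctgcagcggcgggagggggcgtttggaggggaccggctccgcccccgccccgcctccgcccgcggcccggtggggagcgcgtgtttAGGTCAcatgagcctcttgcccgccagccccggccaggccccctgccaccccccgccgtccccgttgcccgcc
Nampt, chr12:32820085-32820334, plus strand: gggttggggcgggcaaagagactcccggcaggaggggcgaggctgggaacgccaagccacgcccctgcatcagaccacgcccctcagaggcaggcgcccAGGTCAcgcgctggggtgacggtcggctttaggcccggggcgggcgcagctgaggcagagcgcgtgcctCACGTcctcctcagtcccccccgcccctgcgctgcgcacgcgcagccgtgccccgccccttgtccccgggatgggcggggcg

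In these windows Adipoq had 3 CCAAT matches and 1 C/EBP-type match, and Lep had 1 C/EBP-type match, TTGCGCAA, 55 to 48 bases before the start. Nrg4 had 2 nuclear receptor half-sites, 2 C/EBP-type matches and 1 hypoxia core. Vegfb had 2 half-sites, Nampt 1 half-site and 1 hypoxia core, and Retn had 0 matches to any of the 5. Over all 32851 windows of the same length, 33.8% held CCAAT, 36.8% the C/EBP-type site, 14.0% the half-site, 16.6% the hypoxia core and 12.4% the TATA box. A match describes letters only, and its absence concerns only this window.

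The windows also differed in base composition. The Adipoq window had 0 CpG dinucleotides and 48.8% G and C, and the Retn window had 2 CpGs and 54.8%. Nrg4 had 10 CpGs and 53.2%, and Lep 16 and 65.6%. Vegfb and Nampt had 26 and 27 CpGs and 76.4% and 75.6% G and C, above 97.0% and 96.4% of all windows, whose medians were 6 CpGs and 52.4%. Vegfa, with 2 starts in the table and no sequence shown, had 11 and 7 CpGs, and Bmp8b 17. Vegfb and Nampt, over 69.2 in fibroblasts, had more CpGs than any gene under it. Vegfa, also over it there, had fewer than Lep or Bmp8b, under it. Whether the counts go with fibroblast intensity was not tested.

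Of the 9 genes measured, 8 were called higher in DiBA than in fibroblasts, beside 8.54% of all genes, and 8 were higher in BA, beside 9.51% of all genes. None was called lower in either, beside 7.67% and 9.59% of all genes. The genes studied were chosen with earlier results of these data known, so these shares stand side by side only as a description. Bmp8b was the 1 exception in both comparisons and was also the 1 gene that did not pass the filter on low intensities, which the other 8 passed. Their median log2 difference was 4.22 for DiBA and 4.35 for BA, counting Bmp8b, against 0 over all genes. Both comparisons share the fibroblast array, so their values are given side by side and not as 2 independent results.

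**Figure D1:**
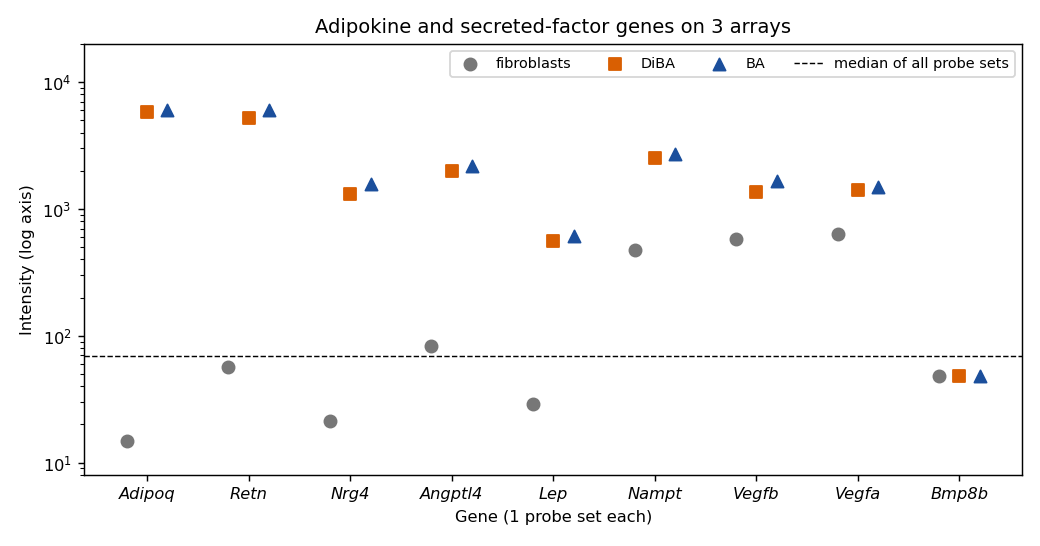
Intensity of each of the 9 genes on the fibroblast (circle), DiBA (square) and BA (triangle) arrays, on a log axis, 1 probe set and 1 array per point. The dashed line is the median of all probe sets, 69.2. DiBA and BA points lie close together and above the fibroblast point for every gene but Bmp8b, whose 3 points are equal.

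Among the hormones, Adipoq, which encodes adiponectin, had an intensity of 14.9 in fibroblasts, 5849 in DiBA and 6048 in BA. The fibroblast array was low and the other two lay near each other. The fold over fibroblasts was 369 for DiBA and 381 for BA. With intensities under 69.2 raised to it, a floor used for all genes studied, the folds were 83.4 and 86.2. The size thus rests in part on a value in the dim range, while the call does not.

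Retn, which encodes resistin, had intensities of 56.2 in fibroblasts, 5198 in DiBA and 5985 in BA. It was 91.0-fold higher in DiBA and 104.7-fold higher in BA, and 74.1-fold and 85.3-fold with the floor. Its fibroblast value lay closer to the median of all probe sets than that of Adipoq, so the floor changed it less.

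Lep, which encodes leptin, a hormone more typical of white fat, had intensities of 29.0 in fibroblasts, 559 in DiBA and 609 in BA. The folds were 18.7 and 20.4, and 7.98 and 8.70 with the floor. Lep was therefore called in both, with a smaller difference than Adipoq or Retn. Its difference lay above 99.4% of genes in DiBA and 99.3% in BA, that of Retn above 99.9% in each.

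Among growth factors, Nrg4, an EGF-family ligand that signals to the liver and to nerves, had intensities of 21.1 in fibroblasts, 1309 in DiBA and 1569 in BA. It was 59.2-fold and 70.9-fold higher, or 18.7-fold and 22.4-fold with the floor. The 2 VEGF genes behaved differently from the hormones in that fibroblasts already showed them well over the median of all probe sets. Vegfa, the main inducer of capillary growth, had 634 in fibroblasts, 1417 in DiBA and 1483 in BA, folds of 2.23 and 2.34. Vegfb, a related ligand linked to fatty acid handling by vessels, had 579, 1351 and 1651, folds of 2.33 and 2.85. Both DiBA values and Vegfa in BA lay just past the 2-fold line, Vegfb in BA further beyond it, and the floor left these folds as they were.

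Bmp8b, a BMP ligand induced in brown fat by thermogenic stimuli, had an intensity of 48.0 on all 3 arrays, to the last deposited digit. Such ties were common in the deposited values. Of the probe sets under 69.2 on every array, 58.2% were equal on all 3, against 12.4% of the others. How the ties arose was not tested, and the deposited values do not state it. Bmp8a, its close relative in sequence, was chosen after its value was seen and was also tied, at 52.5 on every array. The deposited values so show no difference between the samples for Bmp8b or Bmp8a.

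Among the remaining products, Angptl4, the secreted inhibitor of lipoprotein lipase, had intensities of 82.4 in fibroblasts, 2003 in DiBA and 2192 in BA. Its folds were 24.0 and 26.3, and the floor left them as they were, since the fibroblast value lay over it. Nampt, the NAD-synthesis enzyme, had 478, 2505 and 2732, folds of 5.23 and 5.70. Nampt was thus bright in fibroblasts too and stood between the VEGF genes and the hormones in its difference.

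**Figure D2:**
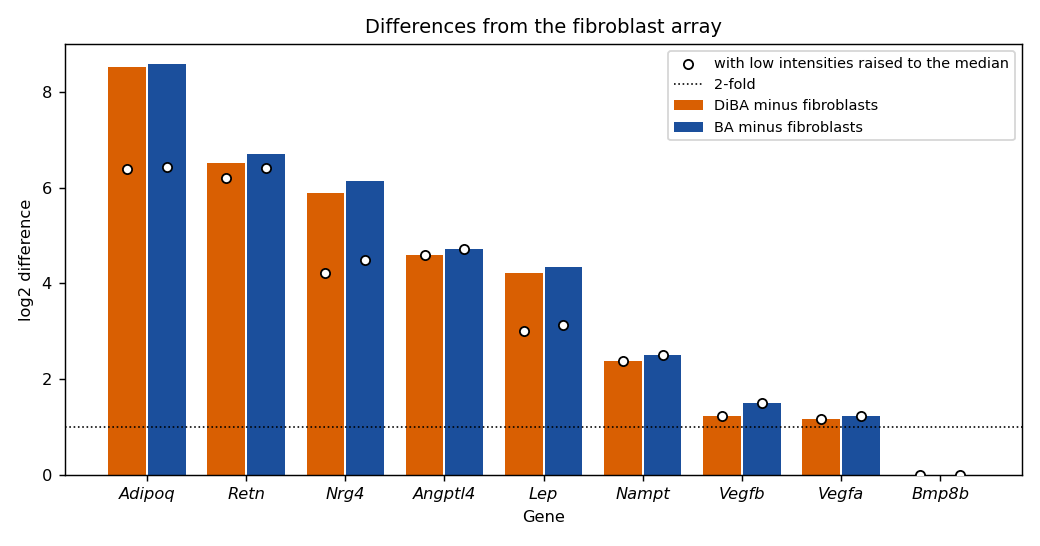
Difference from the fibroblast array in log2 units for DiBA and BA, 1 array each, with the 2-fold line dotted. White points give the same difference with intensities under 69.2 raised to it: Adipoq, Nrg4, Lep and Retn shrink, the others stay, and 8 of 9 genes remain past 2-fold.

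Between DiBA and BA, 0 of the 9 genes reached 2-fold, beside 0.973% of all genes called higher and 0% called lower. At that share a set of 9 would seldom hold one. The 8 genes with untied values were all somewhat dimmer in DiBA. Vegfb was 1.22-fold and Nrg4 1.20-fold higher in BA, Retn 1.15-fold, Angptl4 1.10-fold, Lep and Nampt 1.09-fold, Vegfa 1.05-fold and Adipoq 1.03-fold. Over all genes, 6149 were lower in DiBA, 4808 higher and 8981 tied. Ranked among all 19938 genes, ties included, the difference of Vegfb stood at percentile 3.5, Nrg4 at 4.59 and Retn at 8.02. The other 5 ran from 14.2 for Angptl4 to 23.9 for Adipoq. The 8981 tied genes rank above every gene lower in DiBA, so these percentiles would be higher among untied genes alone. Among the 1897 genes called higher in BA than in fibroblasts, the median DiBA intensity was 87.9% of that in BA. It was 81.9% for Vegfb, 83.4% for Nrg4 and 86.8% for Retn, with a median of 91.5% over the 8 genes. Without replicates it is not known whether differences of this size exceed the variation between samples.

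The same values can be put as the share of the distance from fibroblasts to BA that DiBA covered in linear intensity. The share was 96.7% for Adipoq, 92.2% for Vegfa, 91.2% for Lep, 91.0% for Angptl4, 89.9% for Nampt, 86.7% for Retn, 83.2% for Nrg4 and 72.1% for Vegfb. Vegfb thus stood lowest and Adipoq highest. Over the 1897 genes called higher in BA than in fibroblasts, the median share was 83.7%, with quartiles of 77.0% and 90.1%. Of the 8 genes, Vegfb lay under the lower quartile and Adipoq, Vegfa, Lep and Angptl4 above the upper one. Such nearness to BA was not particular to them. The median log2 difference, DiBA minus BA, was -0.125 over the 9 genes, counting Bmp8b, and -0.105 over the 12 general adipocyte markers. A set picked for high BA values can lean to shares under 100%, and the 8 genes are part of this set. How far that bears on these shares was not tested.

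**Figure D3:**
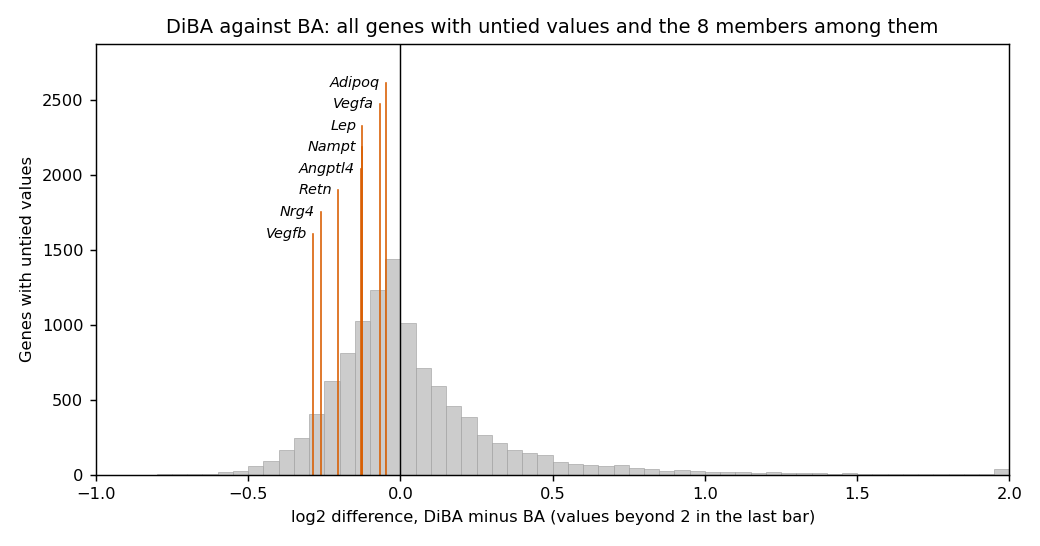
Histogram of the log2 difference DiBA minus BA over genes whose values were not tied, with differences over 2 gathered in the last bar. Lines mark the 8 genes with untied values, from Vegfb at -0.29 to Adipoq at -0.05, all left of 0, with Vegfb, Nrg4 and Retn the lowest of the 8.

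The receptors of these products were examined next. Of 19 receptor genes measured, 4 were higher and 2 lower in DiBA than in fibroblasts, and 4 and 2 in BA, with medians of 0.28 and 0.30 (log2). The shares over all genes, beside which this and the later lists stand, were 8.54% higher and 7.67% lower in DiBA. In BA they were 9.51% and 9.59%. The largest differences were those of Acvr1c, which encodes the activin-type receptor ALK7 of adipocytes, 7.13-fold and 8.75-fold higher, and Adipor2, an adiponectin receptor, 6.78-fold and 7.14-fold. Acvr1c had 24.3 in fibroblasts, 179 in DiBA and 220 in BA, while Adipor2 had 489.5 in fibroblasts. Folds of single genes in this and the later lists are given without the floor. Where an array lay under 69.2, as for Acvr1c, the fold and its rank rest in part on a dim value. Erbb4, a receptor of neuregulin 4, was 4.21-fold and 4.58-fold higher, from 53.0 in fibroblasts to 226 in DiBA and 246 in BA. The following were chosen after their values were seen. Adipor1, the other adiponectin receptor, had 860, 1412 and 1473 and was not called. Lepr, the leptin receptor, stayed under 69.2 at 18.5, 18.3 and 18.5. Kdr, a VEGF receptor of endothelial cells and 1 of the 10 endothelial markers, was 2.09-fold and 2.67-fold higher, the first of which fell short of 2-fold with centred arrays. Cap1, reported as a receptor of resistin and also an actin regulator, and Bmpr1b, a BMP receptor, were the 2 lower genes. None of the 19 reached 2-fold between DiBA and BA, beside only 0.973% of all genes, so a list of this size would seldom hold one.

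Relatives of these ligands did not share 1 direction. Of 25 measured, 4 were higher and 5 lower in DiBA than in fibroblasts, and 4 and 7 in BA, with medians of 0 in both. Retnla, a resistin-like gene active in fat and in macrophages, had intensities of 15.6, 1008 and 807, or 60.9-fold and 48.8-fold higher, while the macrophage and immune markers were higher as well. C1qtnf3, an adiponectin paralogue, went the other way, 17.7-fold lower in DiBA and 17.0-fold lower in BA. Bmp4, a BMP that commits precursors to the fat lineage, was 9.05-fold and 18.1-fold lower, with 2926 in fibroblasts, 323 in DiBA and 161 in BA. Among genes chosen after their values were seen, Angptl8, a partner in lipase inhibition, was 4.34-fold and 5.36-fold higher. Vegfc, a growth factor of lymphatic vessels, was 2.60-fold and 3.93-fold lower, and Nrg1, a neuregulin, 3.13-fold and 3.98-fold lower. Nrg1 lay under 69.2 in DiBA and BA, at 60.1 and 47.0, and Vegfc in BA, at 53.3. Of the other listed genes of both families, Vegfd was lower only in BA and Pgf was 2.01-fold lower in both. Nrg2 and Nrg3 were not called. So Vegfc and Nrg1, picked with their direction known, differed from fibroblasts in the opposite direction to Vegfa, Vegfb and Nrg4.

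Other secreted factors of fat were also mixed. Of 27 measured, 7 were higher and 6 lower in DiBA than in fibroblasts, and 6 and 7 in BA, with medians of 0 and 0.10. Lgals12, a galectin of lipid droplets, was 63.1-fold and 70.6-fold higher, and Rbp4, the retinol carrier, 29.1-fold and 33.0-fold. Between DiBA and BA, 3 of the 27 were called higher in DiBA: Lcn2, which encodes lipocalin 2, 58.2-fold, Slit2, an axon guidance ligand, 13.3-fold, and Adamts1, a matrix protease, 2.40-fold. Slit2 and Adamts1 were brighter still in fibroblasts, at 2511 and 982, whereas Lcn2 had 31.9 there. In BA, Lcn2 and Slit2 lay under 69.2, at 58.7 and 39.5. None of the 9 genes under study was called between DiBA and BA, beside only 0.973% of all genes, so 9 genes would seldom hold one.

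Genes for the folding and export of secreted proteins were more often lower than higher, beside higher hormone transcripts. Of 15 measured, 1 was higher and 5 were lower in DiBA than in fibroblasts, and 1 and 9 in BA, with medians of -0.85 and -1.11. With arrays centred on their medians, 7 were lower in DiBA. P4hb, a protein disulfide isomerase, was 2.89-fold and 3.61-fold lower, and Sec61a1, the channel into the endoplasmic reticulum, 2.48-fold and 2.78-fold. Plod3, a collagen lysyl hydroxylase, was 2.38-fold and 3.11-fold lower. The 1 higher gene was Gstk1, whose product, also called DsbA-L, promotes adiponectin assembly, with intensities of 93.1, 2788 and 3178 and folds of 29.6 and 33.8. Erp44, which retains adiponectin in the early secretory pathway and was chosen after its value was seen, had 646, 507 and 493 and was not called. The fibroblast array was also the brightest for collagen genes such as Col1a1, at 4780 against 854 and 637. Whether this goes with the folding and export genes was not tested.

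The remaining lists concern what single products act with. For factor D, whose own gene was not measured, 10 complement genes were, of which 7 were higher and 1 lower in DiBA than in fibroblasts, and 4 and 1 in BA. C1s1, a protease of the classical pathway, was 13.1-fold and 11.4-fold higher, Cd59a, an inhibitor of the final complex, 5.73-fold and 6.34-fold, and Masp1, a lectin pathway protease, 7.31-fold and 9.26-fold lower. The fibroblast value of C1s1 was dim, at 18.1. Clu and Cd55, both complement inhibitors, exceeded their BA values by 2.26-fold and 2.10-fold in DiBA, and with centred arrays only 1 of them, Clu, was called. Cfb, the substrate of factor D, was chosen after its value was seen and had 40.4, 191 and 231.

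Around NAMPT, 15 genes that make or use NAD were measured, of which 4 were higher and 1 lower in each comparison with fibroblasts, with medians of 0.35 and 0.48. Sirt3, a mitochondrial NAD-dependent deacylase, was 5.44-fold and 6.21-fold higher, and Nadk2, the mitochondrial NAD kinase, 3.33-fold and 3.50-fold. Naprt, which makes NAD from nicotinic acid, was 3.20-fold and 3.97-fold higher, and Nnt, a mitochondrial transhydrogenase, 3.23-fold and 4.31-fold lower.

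Around ANGPTL4, 5 of 12 genes of the lipase system were higher and 1 was lower in both comparisons. Lpl, the lipase itself, had intensities of 281, 6177 and 6469, folds of 21.9 and 22.9. Gpihbp1, its anchor on capillary cells, was 7.53-fold and 9.20-fold higher, beside the higher endothelial markers, and Vldlr, a lipoprotein receptor, 3.98-fold and 4.33-fold. So the transcripts of the lipase and of its inhibitor were both higher.

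Of 20 transcription regulators, 11 were higher and 1 was lower in each comparison with fibroblasts, with medians of 1.46 and 1.17. Ppara and Pparg, lipid-sensing nuclear receptors, were 41.3-fold and 25.6-fold higher in DiBA and 49.3-fold and 27.6-fold in BA, and Cebpa, a C/EBP factor of mature adipocytes, 18.5-fold and 21.7-fold. Between DiBA and BA, 2 of the 20 were called, Prdm16 at 4.85-fold and Cebpb at 2.40-fold higher in DiBA. The 1 lower gene was Hif1a, the oxygen-regulated activator of Vegfa, with 1710, 800 and 717. Epas1, its relative, chosen after its value was seen, had 164, 1660 and 1870. Over all 8 lists, 42 of 141 genes were higher and 22 lower in DiBA than in fibroblasts, 38 and 29 in BA, and 7 and 0 in DiBA against BA. The shares over all genes were 8.54% and 7.67%, 9.51% and 9.59%, and 0.973% and 0%.

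**Figure D4:**
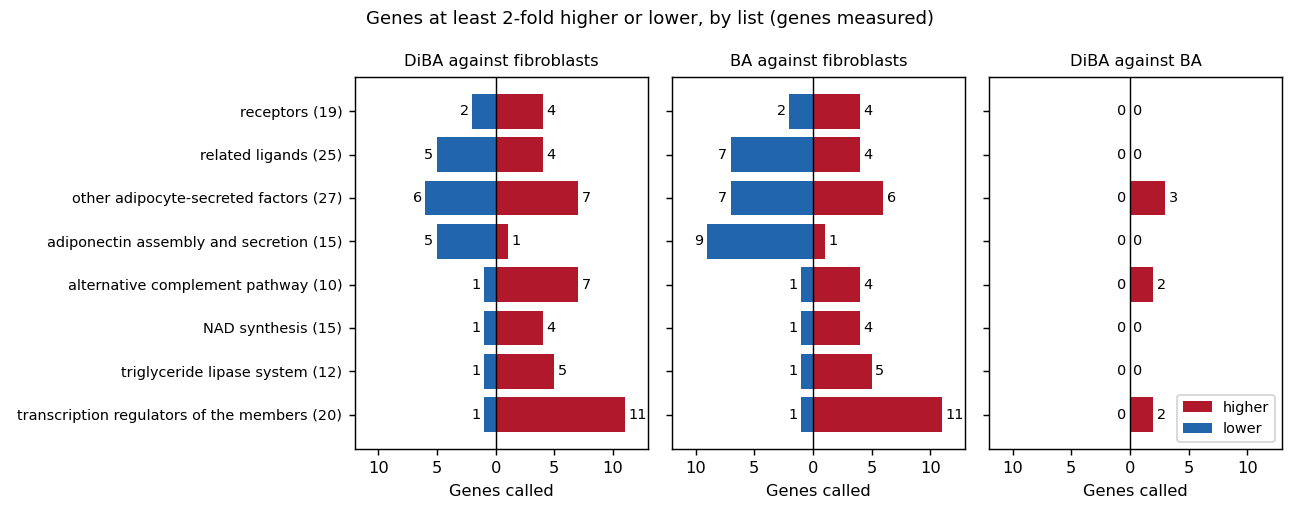
Number of genes at least 2-fold higher (right) or lower (left) in each list, for the 3 comparisons, with the number of genes measured in brackets. Transcription regulators are mostly higher against fibroblasts, and the folding and export genes (assembly and secretion) more often lower. Between DiBA and BA, 7 of the 141 genes are called, all higher in DiBA, beside 0.973% of all genes.

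The genes with the most similar pair of differences from fibroblasts were found by Euclidean distance in log2 units, a description over 2 differences that share an array. Cyp2e1, a cytochrome P450, and Tmem45b were nearest to Adipoq, at 0.28 and 0.86, and Pck1, an enzyme of glyceroneogenesis, and Steap4 were nearest to Retn, at 0.07 and 0.21. Lgals12 and Pdk4, a kinase that restrains pyruvate oxidation, were nearest to Nrg4, at 0.09 and 0.12. Cxcl13 and Tcim lay nearest to Lep, and Glul, glutamine synthetase, and Mgst1 to Angptl4. Slc1a3 and Rtn4ip1 lay nearest to Nampt, Gpbp1l1 and Oxa1l to Vegfa, and Slc2a12 and Trim14 to Vegfb. The distances were at most 0.02 for Vegfa and Vegfb, where many genes had a like difference, and largest for Adipoq.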

How the data were processed

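RNA from 3 mouse samples was hybridised to Affymetrix arrays, 1 each. The values deposited by the authors are linear intensities of probe sets. The submitters' processing notes name Affymetrix Expression Console; its version and how it summarized, background-corrected and normalized are not stated there. The medians of the arrays were 67.8, 71.5 and 67.7, so the values were taken as normalized between arrays, and scanner files were not used here. Of 28943 probe sets, 21789 had 1 symbol in the platform's table, 1621 had several and named no gene, and 5533 were not listed. They gave 19938 genes, whose log2(intensity + 1) values were averaged over probe sets. This pseudocount of 1 makes folds of dim genes smaller. Groups follow the sample titles. No test was run, since each group has 1 array and the number of arrays limits the precision. The working of the 2-fold rule was checked on copies of the fibroblast array with set folds added and no noise (Python 3.11.15, pandas 2.3.3, numpy 2.4.6). That check cannot tell how often samples alike would give a call.

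The genes studied, the 8 pathway lists and the 6 marker lists were chosen with earlier results of these data known. Named were all genes studied, the 3 called genes with the largest difference in each pathway list and comparison, and the 2 nearest genes to each gene called against fibroblasts. Other genes are marked in the text as picked once values were known, apart from markers and the 1 or 2 exceptions of a count. Alternatives were centring, quantile normalization, a pseudocount of 16, no filter, a 75th percentile filter, the floor and the highest probe set per gene.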

Additional observations from a re-analysis of the deposited data

How the results depend on the processing

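Under each of the 7 alternatives, 8 of the 9 genes were called higher in DiBA and in BA than in fibroblasts, and 0 of 9 were called between DiBA and BA. Some alternatives could not drop a call. Each of the 9 genes has 1 probe set, so taking the highest changed nothing, and removing the filter only admits calls. The 75th percentile cut of 246 lay under the brighter value of every called gene. The counts under these alternatives are therefore no check on the calls. No difference of a called gene changed sign. The smallest values came from the floor or from the pseudocount of 16 for the genes that were dim in fibroblasts: Adipoq in DiBA ranged from 6.38 to 8.53 (log2), Nrg4 from 4.22 to 5.89, Lep from 3.00 to 4.22 and Retn from 6.18 to 6.53. Vegfa and Vegfb in DiBA ranged from 1.08 to 1.16 and from 1.15 to 1.22, close to the 2-fold line of 1 on this scale. Centring moved the median of all genes by -0.08 for DiBA against fibroblasts and for DiBA against BA, so Bmp8b, tied as deposited, then lay at -0.08 in both. No paired analysis was possible because each group has 1 array, and for the same reason no sample could be left out. Detection calls were not used here, so how far dim values lie above background is not known.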
